A study of Mus musculus with 35 samples.

Results

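The genes of 3 transcription factor families that repress epithelial genes, Snail (Snai1 and Snai2), Zeb (Zeb1 and Zeb2) and Twist (Twist1 and Twist2), were measured together with Sox4 in RNA-seq libraries of mouse pancreatic ductal adenocarcinoma (PDAC) cells. The 7 genes were taken by name out of 53465 genes in 1 count table. Each name had 1 gene identifier, and the rule for the choice used names alone, although it was set with earlier results of these data known. All 7 were counted in every one of 35 libraries, with from 14 (Twist2) to 8098 (Sox4) reads a library, and all 7 passed the filter on low counts in each comparison below.

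Snail, Zeb and Twist factors bind E-box sequences and are known for driving the epithelial-mesenchymal transition (EMT), in which carcinoma cells lose junction proteins such as E-cadherin and gain motility and matrix genes. SMAD4 is the shared partner that carries TGF-beta and BMP signals from receptor-activated SMAD proteins to DNA, and Snai1 and Zeb1 are textbook targets of that pathway. Sox4 is a high-mobility-group transcription factor induced by TGF-beta, and in pancreatic carcinoma it has been described as taking part in a cell death program that EMT triggers.

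The cells were tumor-derived KC-shSmad4 PDAC cells, which carry Ptf1a-Cre, the RIK allele (a reverse tetracycline transactivator with the red marker mKate2) and a doxycycline-inducible short hairpin RNA against Smad4. They grew in the pancreas after injection into its tail, in the liver after injection into the spleen, or in the lungs after injection into a tail vein. All hosts were female nude (Foxn1nu) mice of 6 to 8 weeks on doxycycline chow. By the study's account, groups labelled Smad4ON changed to regular chow at 4 weeks (pancreas), 5 weeks (liver) or 6 weeks (lungs) after injection. Cells positive for mKate2 were sorted at day 7 or day 14, which the study counts from the change of chow. The 12 groups held, as labelled off and on, 3 and 2 libraries for pancreas day 7, 2 and 3 for liver day 7, 4 and 2 for lungs day 7, 2 and 3 for pancreas day 14, 3 and 3 for liver day 14, and 4 and 4 for lungs day 14. Nude hosts lack mature T cells, the route into each organ differed, and the labels do not give which tumor-derived line went into which mouse, so organ, route and withdrawal week cannot be told apart between organs. The labels do not say that same-group libraries came from separate mice, so p-values measure the spread between these libraries.

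The Smad4 message went against the labels. Smad4 stood at 68.3 to 147 CPM (read counts scaled to library size with the TMM factors of edgeR) with a median of 103 in the 18 libraries labelled off, and at 14.7 to 22.3 with a median of 17.7 in the 17 labelled on, so every direction below is that of a label and not of the Smad4 message. Whether the chow given followed the labels was not tested, so no direction below can be read as that of doxycycline withdrawal. Library totals ran from 11885461 to 43571007 counts with a median of 19415320. A total of 10 libraries, none from the pancreas, had reads on the mitochondrial gene mt-Co3, and 25 had none. The liver day 7 library labelled off with replicate number 2 stood apart: it was the single paired-end library, its summed level of 6 PDAC epithelium markers was 3810 CPM against 12575 to 16853 in the other 10 liver libraries, and its summed level of 8 fibroblast markers was 36271 CPM against 266 to 4386. Fold changes, calls and correlations that include it are given with and without it.

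Levels were compared between genes per kilobase of exon, a length-corrected scale. Sox4 had the highest median level over the 35 libraries at 25.4 CPM per kb, followed by Twist1 at 22.9. Zeb1 followed at 5.47 and Snai1 at 5.36, which lay close together within wide spreads (1.30 to 15.7 for Zeb1 and 0.412 to 40.2 for Snai1). Zeb2 at 1.99, Twist2 at 1.65 and Snai2 at 1.51 CPM per kb were lowest, again with overlapping ranges. The length used counts all annotated exons of a gene, 19942 bases for Zeb2, 10266 for Zeb1 and 1621 for Snai1. A single transcript can be shorter, and the part of this length in the order was not tested. The spread over libraries was widest for Snai1, whose highest library (65.2 CPM) was 97.6 times its lowest (0.667 CPM), and narrowest for Zeb2, with 8.11 times. The highest Snai1, Zeb2 and Twist1 values were all in the paired-end library. Without it the medians ran from 1.49 (Snai2) to 25.3 CPM per kb (Sox4), and the highest Snai1 library was 69.1 times the lowest.

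**Figure D1:**
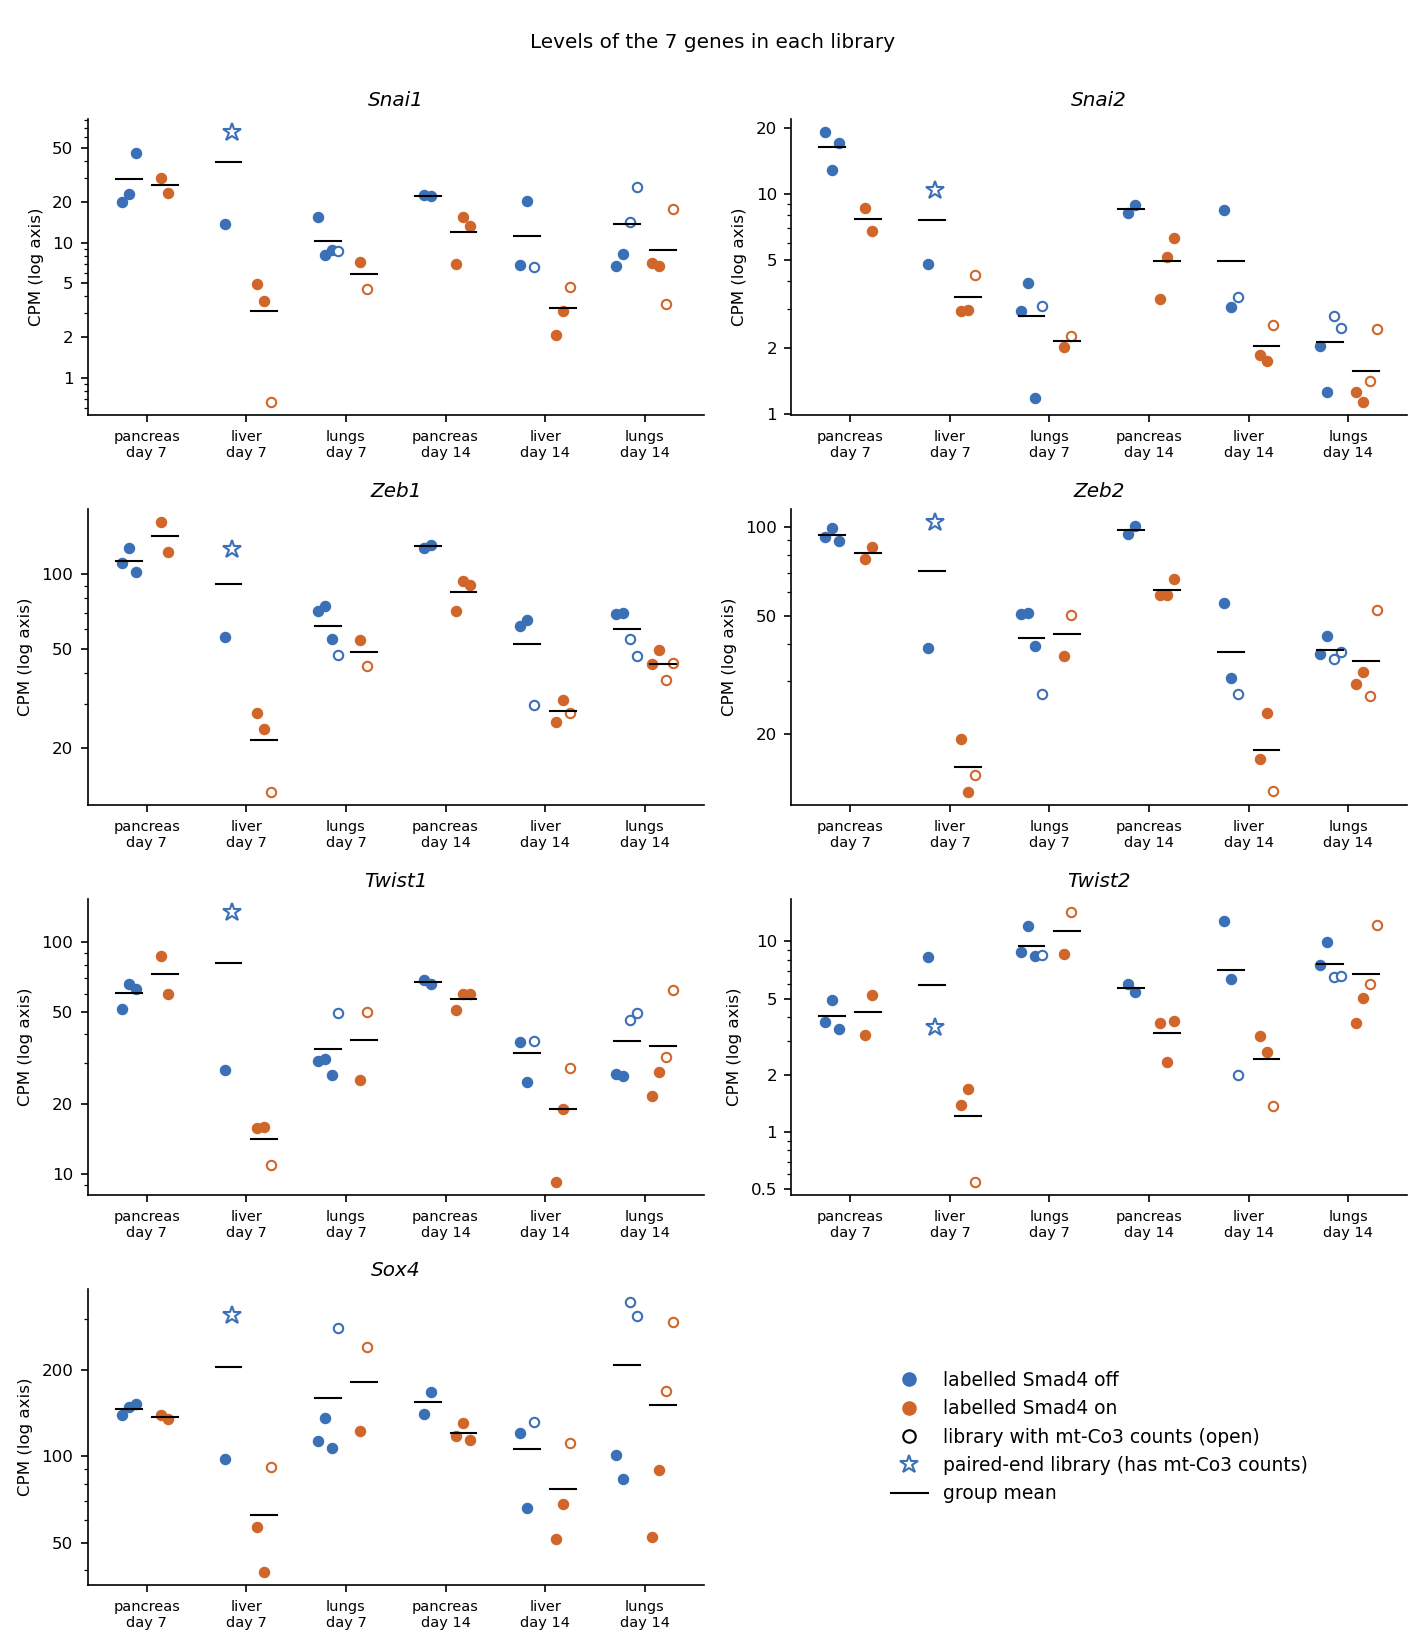
Level of each gene in each library (CPM, log axis) by organ and day, with libraries labelled off in blue and on in orange, libraries with mt-Co3 reads as open symbols, the paired-end library as a star and group means as lines. In liver day 7 the 3 libraries labelled on lie below both libraries labelled off for all 7 genes. The share of all genes apart in this way was not counted. The paired-end library is the highest of the 5 for 6 of the 7 genes, Twist2 being the exception.

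The deposited genes lie on GRCm38 chromosomes 1 (Twist2), 2 (Zeb2 and Snai1), 12 (Twist1), 13 (Sox4), 16 (Snai2) and 18 (Zeb1). Sequence from 250 bases before to 50 bases after an annotated start was matched in RefSeq (GRCm38.p6) for Snai1, Zeb2, Twist1, Twist2 and Sox4. These windows were searched on both strands for the SMAD box CAGAC, the GC-rich SMAD motif GGCGC and the E-box CAGGTG, which 49.6%, 36.9% and 20.2% of all 32851 windows hold. The SMAD box was found once for Twist1 and at 2 positions for Sox4, and the E-box once, for Snai1. Neither was found in the windows of Zeb2 and Twist2. GGCGC was matched 4 times each for Snai1 and Twist1, 2 times for Twist2 and 3 times in 1 of the windows of Zeb2, that of the start lying farthest along the gene. The stretches that hold these matches, from 150 bases before to 10 bases after the start, are shown 5′ to 3′ on the strand of the gene with the SMAD box (or GTCTG, its complement) and the E-box (as CACCTG) in capitals, since they place the letters that SMAD and Snail or Zeb proteins read beside the starts of the 3 genes.
Snai1, chr2:167538045-167538204, plus strand: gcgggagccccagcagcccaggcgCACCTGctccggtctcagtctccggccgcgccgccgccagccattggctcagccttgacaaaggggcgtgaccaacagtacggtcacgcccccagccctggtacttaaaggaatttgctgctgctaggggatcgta
Twist1, chr12:33957521-33957680, plus strand: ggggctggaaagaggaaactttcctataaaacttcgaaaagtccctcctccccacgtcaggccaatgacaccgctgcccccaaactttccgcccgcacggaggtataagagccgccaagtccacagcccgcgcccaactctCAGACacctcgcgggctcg
Sox4, chr13:28953690-28953849, minus strand: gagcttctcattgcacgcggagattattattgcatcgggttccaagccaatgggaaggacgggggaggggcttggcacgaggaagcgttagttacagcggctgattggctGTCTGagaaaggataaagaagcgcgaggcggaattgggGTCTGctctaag
The E-box of Snai1 begins at position -126, the SMAD box of Twist1 at -9 and those of Sox4 at -40 and -2. A match is a string of letters, and nothing in these libraries measures binding to it.

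The first question was whether the 7 genes differed between the labels within one organ and day. In the pancreas at day 7 they were close to level: 4 were lower and 3 higher in the libraries labelled on, with a median log2 fold change (labelled on minus labelled off) of -0.07 against 0.01 over all genes tested. A gene was called when it differed more than 2-fold with a Benjamini-Hochberg adjusted p under 0.05 in the quasi-likelihood test of edgeR. None of the 7 was called, where 1.33% of 14439 genes were. Of the 7, 1 had an unadjusted p under 0.05, as did 3340 of the 14439.

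Snai2 showed the widest gap in the pancreas at day 7. Snai2, the Snail factor also called Slug, stood at 19.0, 12.8 and 17.0 CPM in the 3 libraries labelled off and at 8.65 and 6.79 in the 2 labelled on. The groups did not overlap, and the log2 fold change was -1.06 ± 0.23 (SE, 5 libraries, edgeR adjusted p = 0.0663), which missed the threshold. The call was made with DESeq2 (adjusted p = 0.00209), which called 2.07% of all genes. Zeb1 leaned the other way there, at 111, 127 and 102 CPM labelled off and 161 and 123 labelled on, with overlapping groups and a log2 fold change of 0.35 ± 0.15 (edgeR adjusted p = 0.223). The other 5 were at 0.305 (Twist1), 0.089 (Twist2), -0.071 (Sox4), -0.14 (Snai1) and -0.18 (Zeb2).

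Summed marker levels also differed by label in this stratum. Of 9 marker lists 4 had no overlap between the labels: fibroblast markers were at 11775 to 16780 CPM labelled off and 22882 to 24245 labelled on, acinar markers at 714 to 1560 and 304 to 504, pericyte markers at 24.9 to 42.4 and 49.7 to 54.5, and leukocyte markers at 96.5 to 127 and 68.1 to 83.5. Their part in the values of the 7 genes was not tested.

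In the pancreas at day 14 all 7 were lower in the libraries labelled on, with a median log2 fold change of -0.58 against 0.02 over all genes. Zeb2, which like Zeb1 represses E-cadherin through its zinc finger clusters, was at 94.3 and 100.3 CPM labelled off and at 58.6, 58.9 and 66.4 labelled on. Its groups did not overlap, and its log2 fold change was -0.58 ± 0.09 (5 libraries, edgeR adjusted p = 0.00684). Zeb1 was at 127 and 131 CPM labelled off and at 71.4, 94.0 and 90.2 labelled on, again apart, with a log2 fold change of -0.52 ± 0.12 (edgeR adjusted p = 0.0305). Both passed the test on p and fell short of the 2-fold mark. Thus 0 of 7 were called by edgeR or by DESeq2, against 4.64% of genes. Of the 7, 6 had an unadjusted p under 0.05, as did 4075 of 14234 genes. The other 5, with adjusted p-values of 0.127 to 0.329, were at -0.82 (Snai1), -0.71 (Snai2), -0.70 (Twist2), -0.27 (Sox4) and -0.16 (Twist1). Beside them the summed PDAC epithelium markers were at 4361 to 4794 CPM labelled off and 5414 to 7699 labelled on, without overlap. The sums of 3 more of the 9 marker lists were also apart (pericyte lower, hepatocyte and mesothelium higher labelled on). In the pancreas libraries the mesothelium sum rested on Msln (137 to 329 CPM), with its other genes at most 3.70 CPM. The hepatocyte sum rested mainly on Ttr (1.18 to 7.96 CPM), with its other genes at most 2.34 CPM. These 2 sums therefore do not stand for cell types there. The fibroblast sums overlapped. Library totals were also apart by label there, at 28557488 and 32195795 counts labelled off and at 12200163 to 14255679 labelled on. The part of these marker levels and of the totals in the label difference was not tested.

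The largest label differences were in the liver at day 7, and they leaned on 1 library. All 7 were lower in the libraries labelled on, with log2 fold changes from -3.73 (Snai1) to -1.25 (Snai2) and a median of -2.28 against -0.06 over all genes. Snai1 was at 13.8 and 65.2 CPM labelled off, the second value being the paired-end library, and at 4.93, 3.68 and 0.667 labelled on. The lowest of these rests on 17 reads.

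Twist1, a basic helix-loop-helix factor of mesoderm and neural crest, was at 28.2 and 134 CPM labelled off in the liver at day 7 and at 15.7, 16.0 and 10.9 labelled on. Sox4 was at 97.7 and 311.5 CPM labelled off and at 56.8, 39.6 and 91.4 labelled on. Zeb1 and Zeb2 were at -2.15 ± 0.47 and -2.28 ± 0.45. In each of the 7 genes all 3 libraries labelled on were below both libraries labelled off, and the share of all genes apart in this way was not counted. None was called (edgeR adjusted p from 0.0697 for Zeb2 to 0.158 for Snai2), where 0.444% of 16007 genes were. All 7 had an unadjusted p under 0.05, as did 4340 of the 16007.

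Without the paired-end library the liver day 7 values shrank for 6 of the 7 genes. The median log2 fold change went to -1.41 and the range to -2.85 to -0.60, with Snai1 at -2.22 ± 0.92 (edgeR adjusted p = 0.204), Twist1 at -1.07 ± 0.30 (0.108) and Sox4 at -0.74 ± 0.43 (0.338). Twist2, a close relative of Twist1, moved the other way, from -2.36 ± 0.65 to -2.85 ± 0.61 (edgeR adjusted p = 0.0684), since it was at 8.29 CPM in the single-end library labelled off and at 3.55 in the paired-end one. It was at 1.39, 1.69 and 0.550 CPM in the libraries labelled on. Only 1 library labelled off then remains, so its spread is assumed to be that of the other libraries. With the other library labelled off left out instead, 6 of 7 were called, all but Twist2, beside 19.8% of all genes. DESeq2 on all 5 libraries also called 6, beside 9.88% of 29228 genes. The fit without the paired-end library called 0 of the 7 and 4.98% of all genes.

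The paired-end library differed from the others in cell markers as well as in read layout. It was the highest liver day 7 library for 6 of the 7 genes, Twist2 being the exception. All 8 fibroblast markers and all 6 PDAC epithelium markers were above 0 in it, as in every library. Col1a1, a chain of type I collagen and 1 of the fibroblast markers, was at 10249 CPM against at most 5166 CPM in any pancreas library. In bulk libraries, fewer cells of a type and less RNA per cell cannot be told apart. Leukocyte markers (18.4 and 28.5 CPM labelled off, 42.2 to 84.8 labelled on), hepatocyte markers (1.34 and 17.3 against 56.8 to 143) and PDAC epithelium markers (3810 and 12575 against 15424 to 16853) were higher labelled on in this stratum, each without overlap. What part of the liver day 7 difference goes with these markers was not tested.

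**Figure D2:**
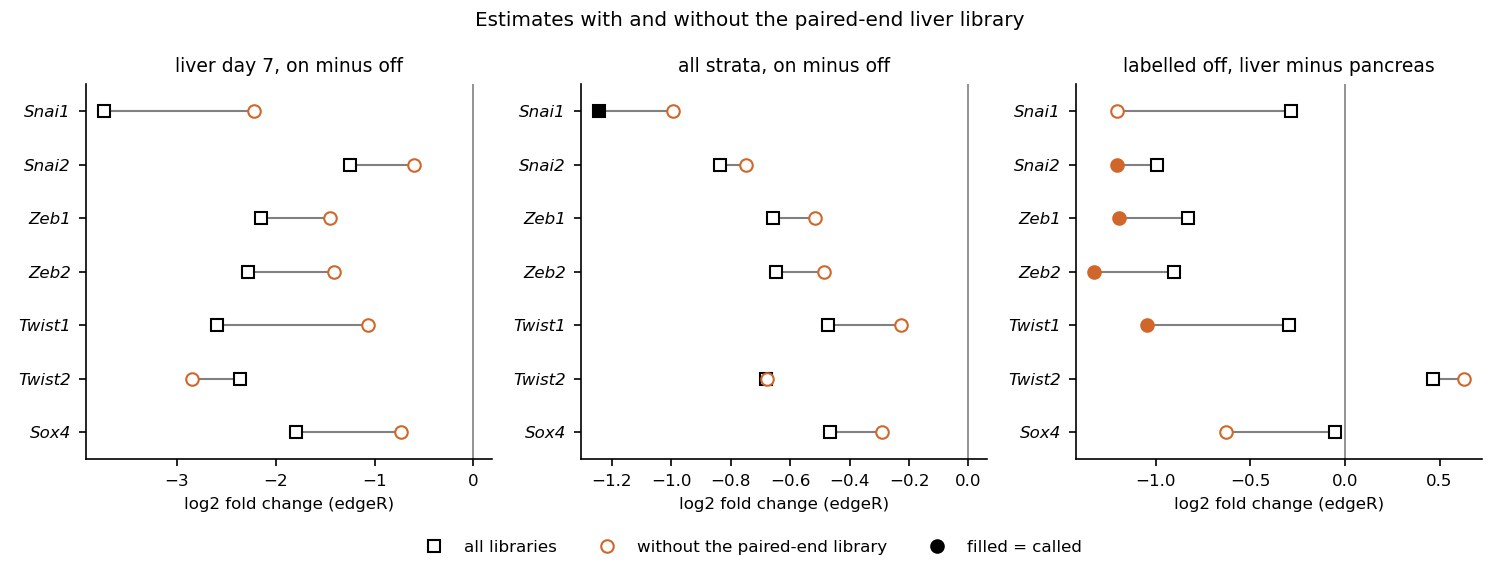
Log2 fold changes of the 7 genes with all libraries (black squares) and without the paired-end library (orange circles) for liver day 7 by label, all strata by label, and liver minus pancreas in the libraries labelled off (filled: called). For Snai1 the liver day 7 value goes from -3.73 to -2.22, and in the liver minus pancreas panel 4 genes become called.

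In the liver at day 14 all 7 were again lower in the libraries labelled on, with a median log2 fold change of -1.14 against -0.002 over all genes, and 0 of 7 were called, as were 0% of 14947 genes. Snai1 was at 6.85, 20.2 and 6.60 CPM labelled off and at 2.06, 3.14 and 4.68 labelled on. Zeb2 was at 55.2, 30.9 and 27.1 CPM labelled off and at 16.4, 23.6 and 12.8 labelled on. The groups were apart for both genes, yet the spread was wide, with log2 fold changes of -1.78 ± 0.56 for Snai1 (6 libraries, edgeR adjusted p = 0.404) and -1.14 ± 0.35 for Zeb2 (0.397).

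Twist2 spread most in the liver at day 14, with 12.8, 6.33 and 1.99 CPM labelled off and 3.20, 2.63 and 1.38 labelled on, and its groups overlapped. Its log2 fold change was -1.60 ± 0.70, beside -1.33 for Snai2, -0.93 for Zeb1, -0.83 for Twist1 and -0.49 for Sox4. An unadjusted p under 0.05 was reached by 4 of the 7 in edgeR, beside 1447 of 14947 genes. DESeq2 called 1 of the 7, Snai1, beside 1.18% of all genes. No marker list was apart by label in the liver or the lungs at day 14.

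In the lungs the label differences were smaller. At day 7 the 7 genes had log2 fold changes from -0.78 to 0.32 with a median of 0.09 (0.003 over all genes). None had an unadjusted p under 0.05, as 793 of 15193 genes did, and 0 of 7 and 0% of genes were called. At day 14 they ran from -0.67 to -0.07 with a median of -0.46 (-0.004 over all genes), and 0 of 7 were called against 0.0271% of 14751 genes. DESeq2 called 0 of the 7 on either day. At day 7 the extremes were Snai1 (-0.78) and Twist2 (0.32), and at day 14 Snai1 (-0.67) and Twist1 (-0.066). Of the 9 marker lists 5 were apart by label at day 7, with fibroblast markers at 419 to 2010 CPM labelled off and 158 to 389 labelled on, and their part in these values was not tested.

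Zeb1 was the single gene of the 7 with an unadjusted p under 0.05 in the lungs, at day 14, beside 1485 of 14751 genes. It was at 69.4, 69.9, 54.9 and 47.0 CPM labelled off and at 43.4, 49.5, 37.5 and 43.9 labelled on, with a log2 fold change of -0.48 ± 0.15 (8 libraries, edgeR adjusted p = 0.311). The ranges overlapped between 47.0 and 49.5 CPM. Beside this, Sox4 at day 14 ran from 83.2 to 343 CPM labelled off and from 52.3 to 294 labelled on, a spread wider than its label difference.

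**Figure D3:**
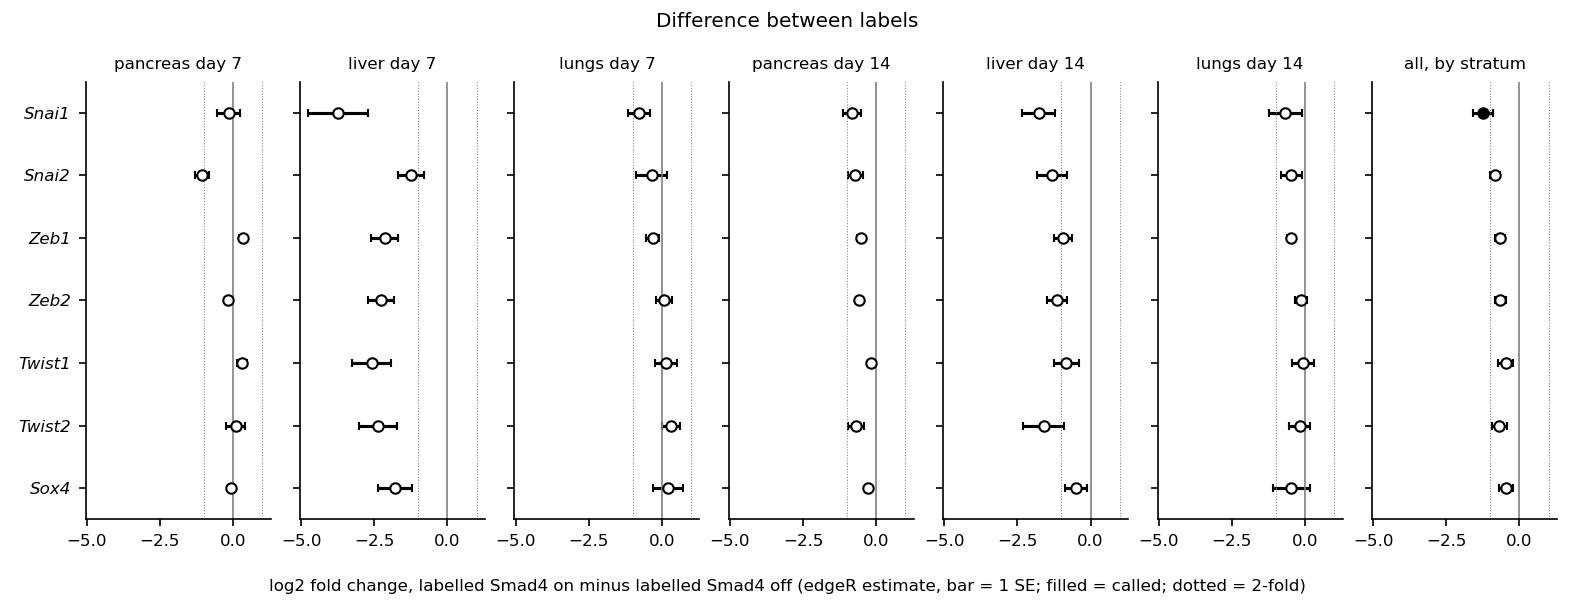
Log2 fold change of each gene, labelled on minus labelled off, in the 6 strata of organ and day and over all of them (points are edgeR estimates, bars 1 SE, dotted lines the 2-fold mark, filled points called). The liver day 7 points run from -3.73 to -1.25, while those of lungs day 7 lie between -0.78 and 0.32, and the only filled point is Snai1 over all strata.

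Over all 35 libraries, with organ and day as covariates, the 7 genes were each lower in the libraries labelled on, and Snai1 was called. The log2 fold changes were -1.24 ± 0.33 for Snai1 (edgeR adjusted p = 0.00778), -0.83 ± 0.18 for Snai2 (0.0013), -0.66 ± 0.16 for Zeb1 (0.00508) and -0.65 ± 0.18 for Zeb2 (0.0109). The other 3 did not pass the test, at -0.68 ± 0.26 for Twist2 (0.0541), -0.47 ± 0.24 for Twist1 (0.168) and -0.47 ± 0.24 for Sox4 (0.173). The median was -0.66 against -0.002 over all genes, and the 1 call stands beside 4.80% of 16372 genes.

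Counted stratum by stratum, all libraries labelled on were below all labelled off in 4 of 6 strata for Snai1, Snai2 and Zeb2. They were so in 2 of 6 for Zeb1, Twist1, Twist2 and Sox4, and in no stratum were they all above. The share of all genes apart in this way was not counted. Groups this small can be apart by chance, so the tallies describe these libraries only. Without the paired-end library the Snai1 value was -0.99 ± 0.27 (34 libraries, edgeR adjusted p = 0.00905), just under the 2-fold mark, and 0 of 7 were called with a median of -0.52, beside 3.74% of all genes. Snai2, Zeb1 and Zeb2 kept adjusted p-values of 0.00342, 0.00537 and 0.0134 there. In the 25 libraries without mt-Co3 reads 0 of 7 were called, beside 5.90% of all genes, and the median was -0.62.

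Whether the label difference was unequal between the 6 strata was tested as an interaction over all 35 libraries. Zeb1 and Zeb2 passed, each with an edgeR adjusted p of 0.0254, as did 2.98% of 17547 genes. Their log2 fold changes went from 0.35 in the pancreas at day 7 to -2.15 in the liver at day 7 for Zeb1, and from 0.09 in the lungs at day 7 to -2.28 in the liver at day 7 for Zeb2. Twist1 (0.067), Twist2 (0.126), Snai1 (0.171), Sox4 (0.672) and Snai2 (0.827) did not. Without the paired-end library neither Zeb gene passed (adjusted p = 0.226 for Zeb1 and 0.227 for Zeb2), and 0.0644% of all genes did. Leaving out a liver day 7 library labelled on had the same effect for both with replicate 2 (0.0599 and 0.081) and replicate 3 (0.064 and 0.0708), and leaving out pancreas day 7 labelled on replicate 1 ended the call of Zeb1 (0.0518).

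The liver and lung label differences were also compared directly. At day 7 the liver value minus the lung value was negative for all 7 genes, with a median of -2.29 on the log2 scale against -0.01 over all genes, and from -2.90 ± 1.02 for Snai1 to -0.83 ± 0.71 for Snai2. Between them lay Twist1 (-2.68), Twist2 (-2.63), Zeb2 (-2.29), Sox4 (-1.92) and Zeb1 (-1.77). None was called (edgeR adjusted p from 0.0566 for Zeb2 to 0.565 for Snai2), against 1.86% of 16369 genes. Without the paired-end library the median was -1.19 and Twist2 had the lowest adjusted p, 0.0784, at -3.12 ± 0.65, with 0 of 7 and 0.0288% of all genes called. At day 14 the median was -0.86 (0.006 over all genes), and 0 of 7 and 0% of 15869 genes were called. Zeb2 at -1.004 ± 0.41 was the 1 gene of the 7 with an unadjusted p under 0.05, beside 478 of all genes. DESeq2 called 5 of 7 at day 7, beside 6.08% of all genes, and 0 at day 14.

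Organs were compared within each label, with both days in the fit. These comparisons share libraries (liver minus pancreas and lungs minus pancreas share the pancreas ones), so they are given side by side. In the libraries labelled on, 6 of 7 genes were called lower in the liver than in the pancreas, beside 22.2% of 15745 genes called. The median log2 fold change was -1.998 against 0.04 over all genes.

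Zeb1, in the libraries labelled on, had a median of 94.0 CPM in the 5 pancreas libraries (71.4 to 161) and of 26.6 in the 6 liver ones (13.4 to 31.1). All 6 liver libraries were below all 5 pancreas ones, with a log2 fold change of -2.18 ± 0.21 (17 libraries, edgeR adjusted p = 1.9e-06). Zeb2 fell by 2.15 ± 0.20 (1.5e-06), from a median of 66.4 CPM (58.6 to 85.1) to 15.4 (12.7 to 23.6), and its groups were also apart. Snai1 fell by 2.53 ± 0.51 (0.000788) and Twist1 was at -1.998 ± 0.32 (0.000118), both without overlap between the organs.

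Snai2 fell by 1.30 ± 0.24 on the log2 scale (edgeR adjusted p = 0.000471) between pancreas and liver in these libraries, with overlapping groups. Twist2 was at -1.10 ± 0.42 (0.0448), a call that was lost in 9 of the 17 fits that left out 1 library (adjusted p up to 0.116): any of the 3 liver day 7 libraries, both pancreas day 7 libraries, pancreas day 14 replicates 1 and 3, liver day 14 replicate 3 or lungs day 7 replicate 1. Sox4 was at -0.93 ± 0.37 (0.0536) and was not called. It was called without liver day 7 replicate 3 (-1.05, adjusted p = 0.0492) or without liver day 14 replicate 3 (-1.18, 0.0194), which are the liver libraries labelled on with mt-Co3 reads.

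Between lungs and pancreas in the libraries labelled on, 3 of 7 genes were called, beside 13.6% of all genes. Snai2 and Zeb1 were called lower in the lungs and Twist2 higher. Snai2 was at 3.34 to 8.65 CPM in the 5 pancreas libraries and at 1.14 to 2.43 in the 6 lung ones, apart, with a log2 fold change of -1.74 ± 0.25 (edgeR adjusted p = 0.000132). Zeb1 was at -1.25 ± 0.20 (0.000396). Twist2, at 1.16 ± 0.42 (0.0495), lay at the threshold, and its call was lost in 13 of 17 fits that left out 1 library (adjusted p up to 0.126).

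Zeb2 passed on p and not on fold between lungs and pancreas labelled on, at -0.87 ± 0.20 (edgeR adjusted p = 0.00373). Without lungs day 14 replicate 4 it was called at -1.005 (0.00118), as were Snai1 at -1.57 (0.0191) and Twist1 at -1.03 (0.02), whose values with it were -1.15 ± 0.50 (0.0972) and -0.81 ± 0.31 (0.0639). That library has mt-Co3 reads and the highest Twist1 of the 14 lung libraries (62.0 CPM).

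Between liver and lungs in the libraries labelled on, 4 of 7 genes were called, all lower in the liver, beside 10.4% of all genes. Twist2 fell by 2.26 ± 0.41 (edgeR adjusted p = 0.00146), Zeb2 by 1.28 ± 0.19 (0.000402), Sox4 by 1.27 ± 0.36 (0.0203) and Twist1 by 1.19 ± 0.30 (0.0119). Zeb1 at -0.93 ± 0.20 (0.00368) passed on p alone, although its liver libraries all lay below its lung ones. Snai2 had the opposite sign, at 0.44 ± 0.24 (0.212).

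The liver and lung calls of Twist1 and Sox4 rested on lung libraries with mt-Co3 reads. Without lungs day 14 replicate 4 the values were -0.97 (edgeR adjusted p = 0.032) and -0.99 (0.0576), and without lungs day 7 replicate 2 Sox4 was at -1.06 (0.0614). In the libraries with no mt-Co3 reads alone, 2 of 7 were called between liver and lungs, beside 7.30% of all genes. The call of Zeb1 was made without liver day 14 replicate 2 (-1.03, adjusted p = 0.0026), and that of Snai1 (main value -1.38 ± 0.49, 0.0541) without lungs day 7 replicate 2 (-1.56, 0.0455), liver day 14 replicate 3 (-1.62, 0.0416) or lungs day 14 replicate 3 (-1.52, 0.0443).

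**Figure D4:**
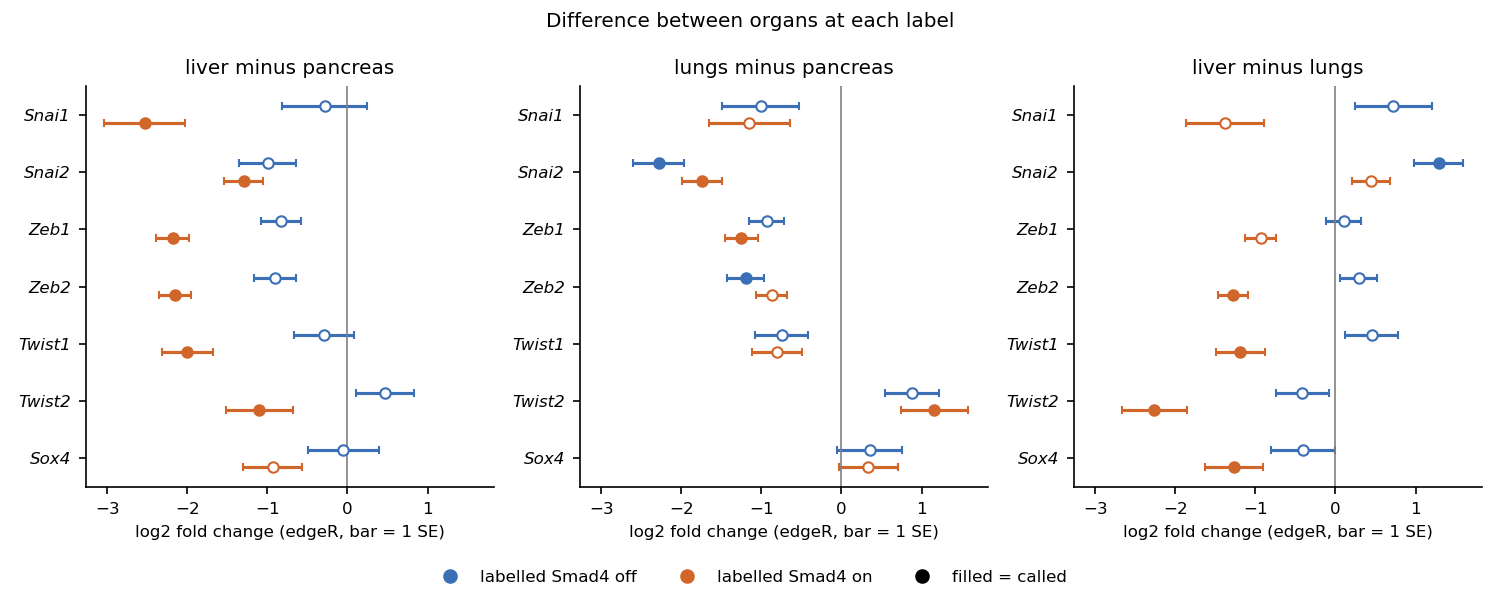
Log2 fold change between organs for each gene within the libraries labelled off (blue) and on (orange), with 1 SE (filled: called). Liver minus pancreas values of Zeb1 are -0.83 labelled off and -2.18 labelled on, and Snai2 is the 1 gene called between lungs and pancreas at both labels.

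In the libraries labelled off, the liver minus pancreas values were smaller and turned on the paired-end library. With it, 0 of 7 were called, against 8.76% of 15677 genes, with a median of -0.29 (0.06 over all genes), and Zeb1 (-0.83 ± 0.25, edgeR adjusted p = 0.0329) and Zeb2 (-0.90 ± 0.26, 0.0283) passed on p alone. An unadjusted p under 0.05 was reached by 3 of the 7, beside 4986 of 15677 genes, and DESeq2 also called 0 of the 7. Without it 4 of 7 were called, beside 15.9% of 16058 genes, all lower in the liver: Zeb2 at -1.33 ± 0.20 (0.00015), Zeb1 at -1.19 ± 0.21 (0.000448), Snai2 at -1.21 ± 0.38 (0.0268) and Twist1 at -1.05 ± 0.22 (0.00189). Snai2 was also called without liver day 14 replicate 1 (-1.26, 0.0274). Zeb1 was then at 29.9 to 65.4 CPM in the 4 liver libraries, below the 102 to 131 of the 5 pancreas ones.

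Between lungs and pancreas labelled off, Snai2 fell by 2.28 ± 0.31 (edgeR adjusted p = 8.4e-05) and Zeb2 by 1.19 ± 0.23 (0.000921), 2 of 7 genes beside 18.4% of all genes. Snai2 was at 8.19 to 19.0 CPM in the 5 pancreas libraries and at 1.18 to 3.94 in the 8 lung ones. The groups did not overlap. Zeb1, at -0.93 ± 0.22 (0.0037), was also apart and short of 2-fold, and it was called without pancreas day 7 replicate 3 (-1.0004, 0.00518). Snai1, at -1.01 ± 0.48 (0.115), was called without the paired-end library (-1.13, 0.0206) or without lungs day 14 replicate 4 (-1.32, 0.0266). With the paired-end library left out, Snai2 was at -2.31 ± 0.30, Zeb2 at -1.21 ± 0.16 and Zeb1 at -0.94 ± 0.16, and 3 of 7 and 19.7% of all genes were called. Twist1 (-0.75 ± 0.33), Twist2 (0.88 ± 0.34) and Sox4 (0.35 ± 0.41) were not called, nor were they without it (-0.80, 0.88 and 0.28).

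Between liver and lungs labelled off, Snai2 was the 1 gene called, 1.29 ± 0.31 higher in the liver on the log2 scale (edgeR adjusted p = 0.0214), beside 3.94% of all genes. It was 1.11 ± 0.33 (0.046) without the paired-end library and 0.999 (0.0701, not called) without liver day 14 replicate 1, its second highest liver library at 8.42 CPM. For Zeb1, Zeb2, Twist1 and Snai1 the values of 0.10, 0.29, 0.45 and 0.72 all turned negative without the paired-end library. Twist2 (-0.42) and Sox4 (-0.41) were lower in the liver by less than the 2-fold mark with it and without it (-0.25 and -0.91). That fit called 1 of 7 and 4.36% of all genes. The difference between labels of an organ contrast was not tested.

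Day 14 minus day 7 gave small values. Median log2 fold changes were -0.26 labelled off and -0.14 labelled on (0.009 and 0.0006 over all genes), and 0 of 7 and 0% of genes were called at either label, with edgeR adjusted p-values from 0.612 upward. An unadjusted p under 0.05 was reached by 1 of the 7 at each label, Snai2 (-0.59 ± 0.27 labelled off and -0.62 ± 0.20 labelled on), and DESeq2 called 0 of the 7. Over all genes it was reached by 1169 of 15677 labelled off and 1209 of 15745 labelled on. The other 6 lay between -0.43 and 0.068 labelled off and between -0.16 and 0.019 labelled on. The median labelled off was 0.007 without the paired-end library, Snai2 was at -0.49 ± 0.28, and 0 of 7 were called.

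Sox4 and Twist1 moved with mt-Co3 reads in the lungs. Sox4 was at 169 to 343 CPM with a median of 287 in the 6 lung libraries with mt-Co3 reads and at 52.3 to 136 with a median of 104 in the 8 without. Twist1 was at 31.9 to 62.0 CPM with a median of 49.5 in the 6 and at 21.7 to 31.3 with a median of 26.9 in the 8. Neither pair of ranges overlapped. Zeb1 went the other way, at 37.5 to 54.9 CPM with and 43.4 to 74.3 without, with overlap. In the lungs minus pancreas contrast this turned the sign of Sox4: with all libraries it was 0.35 ± 0.41 labelled off and 0.34 ± 0.37 labelled on (edgeR adjusted p = 0.53 and 0.521), and in the libraries without mt-Co3 reads -0.44 (0.0299) and -0.56 (0.0809). No label gives what the mt-Co3 reads stand for, and their part in the organ differences of these genes was not tested beyond the values in the libraries without them.

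Within the libraries of equal mt-Co3 status, the mean log2 level was lower labelled on than off in all 6 strata without the reads and all 4 with them for Snai1 and Snai2, and in 5 and 4 of them for Zeb1 and Sox4. Zeb2 was lower in 6 of 6 strata without the reads and in 2 of 4 with them, Twist2 in 5 and 2, and Twist1 in 5 and 3. The lone exception of Zeb1 was the pancreas at day 7. Many of these differences rest on single libraries. With the reads, liver day 7, lungs day 7 and liver day 14 each held 1 library per label. Without them, liver day 7 held 1 library labelled off and lungs day 7 held 1 labelled on. Some differences were small, such as -0.068 for Snai1 in the pancreas at day 7. The share of all genes with such tallies was not counted, so they describe these libraries only. With the paired-end library left out, 3 strata with the reads remain. In these Snai1, Snai2, Zeb1 and Sox4 were lower in all 3, Twist1 in 2, and Zeb2 and Twist2 in 1 each. The tallies without the reads are the same, since the paired-end library has the reads.

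The levels of the genes rose and fell together over libraries to different degrees. Spearman correlations of CPM over the 35 libraries, which share organs, days and labels and are therefore a description only, had a median of 0.57 over the 21 pairs and ran from 0.92 for Zeb1 with Zeb2 to -0.22 for Snai2 with Twist2. Twist1 correlated at 0.84 with Zeb2 and at 0.80 with Sox4, while Twist2 had no value above 0.33 with any of the others. Without the paired-end library the median was 0.54.

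The genes whose levels over the 35 libraries were most like each member, out of 16365 tested, were Nrp2 (0.98) and Dennd5a (0.97) for Zeb1, Wipf1 (0.96) and Tpbg (0.96) for Zeb2, and Ddah2 and Evl (0.91 each) for Snai1. For Snai2 they were Msx1 (0.89) and Nexn (0.88), for Twist1 Numbl and Nr2f1 (0.92 each), for Twist2 Zwint (0.87) and Kcnq5 (0.85), and for Sox4 Ier5l (0.93) and Ano8 (0.92). These rank correlations carry the same shared organs and labels, and without the paired-end library the same pairs stood at 0.85 to 0.98.

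Marker levels moved with organ beside the 7 genes, as they did with label in 4 of the 6 strata. The summed fibroblast markers were 8663 to 24245 CPM in the 10 pancreas libraries, 266 to 4386 in the liver without the paired-end library and 158 to 2010 in the lungs, with all 8 markers above 0 in every library. The summed PDAC epithelium markers were 2538 to 7699 CPM in the pancreas, 12575 to 16853 in the liver without the paired-end library and 6142 to 14526 in the lungs. Acinar markers were 304 to 1728 CPM in the pancreas and at most 17.1 elsewhere apart from the paired-end library (198). Hepatocyte markers reached 143 CPM in the liver and lung epithelium markers 493 CPM in the lungs.

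Over the 35 libraries Zeb1 had Spearman correlations of -0.83 with the epithelium sum and 0.60 with the fibroblast sum, and Zeb2 had -0.84 and 0.58. Snai1 stood at -0.72 and 0.63 and Twist1 at -0.74 and 0.61. Twist2 had -0.09 and -0.43. These were -0.82 and 0.57 without the paired-end library for Zeb1, -0.83 and 0.54 for Zeb2, -0.70 and 0.60 for Snai1, -0.72 and 0.58 for Twist1 and -0.12 and -0.42 for Twist2. The cells had been sorted for mKate2, and the part of these cell types in the organ differences was not tested.

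**Figure D5:**
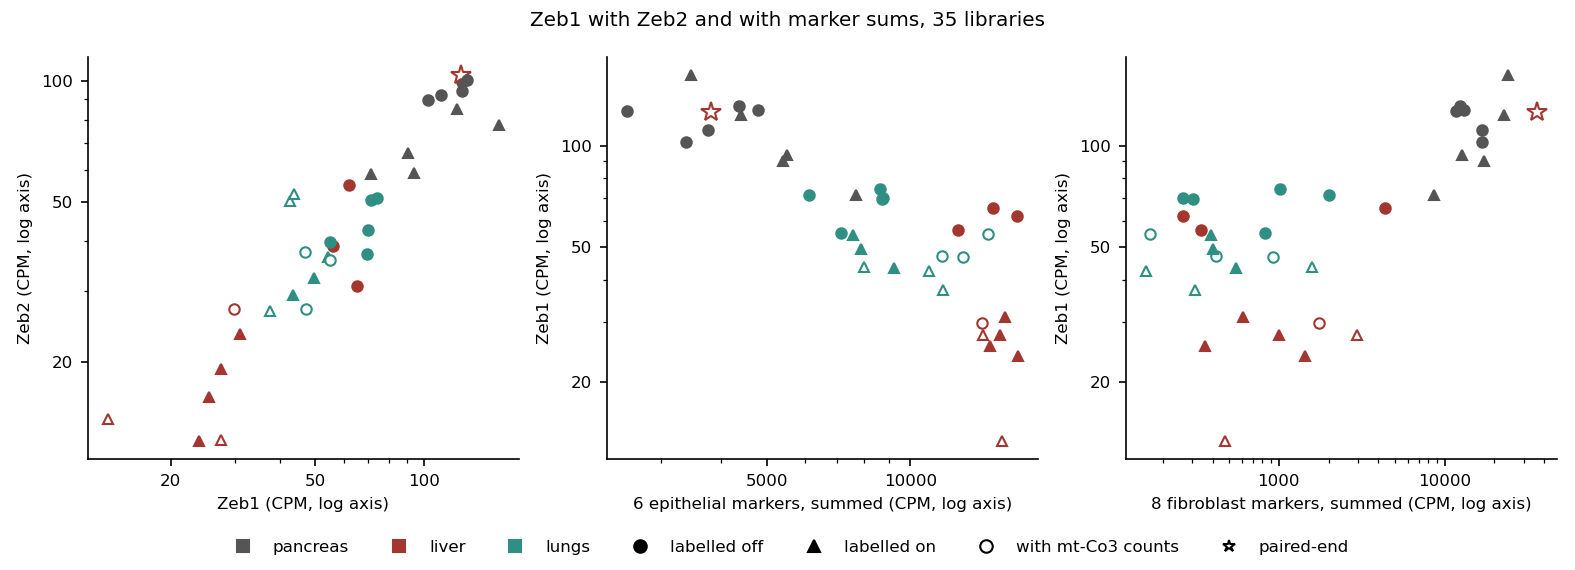
Zeb2 against Zeb1, and Zeb1 against the summed level of 6 PDAC epithelium markers and of 8 fibroblast markers, in 35 libraries (CPM, log axes, colour for organ, circles labelled off, triangles labelled on, open symbols with mt-Co3 reads, star for the paired-end library). Zeb1 and Zeb2 rise together (Spearman 0.92), and the paired-end liver library has pancreas-range Zeb1 and epithelium values but more Zeb2 (103 CPM) and a higher fibroblast sum (36271 CPM) than any pancreas library.

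The other genes of the program were read from lists of EMT transcription factors, co-regulators, epithelial genes, mesenchymal genes and TGF-beta early targets. In liver minus pancreas labelled on, 14 of 15 epithelial genes were called higher in the liver (median log2 fold change 2.67) and 13 of 13 mesenchymal genes lower (median -2.92, against 0.04 over all genes). Cldn3, a tight junction protein, was at 4.05 ± 0.40 (edgeR adjusted p = 2.8e-06), and Cdh11, a mesenchymal cadherin, at -4.56 ± 0.50 (5.2e-06). The epithelial list shares 2 genes with the epithelium markers and the mesenchymal list 1 with the fibroblast markers, so these counts and the marker sums above are not separate measurements.

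Beside the 22.2% of all genes called in that contrast, 4 of 11 other EMT transcription factors tested were called between liver and pancreas labelled on, 3 of them lower: Prrx1 at -3.30 ± 0.59 (edgeR adjusted p = 0.000304), Tcf4 at -2.61 ± 0.25 (2.2e-06) and Prrx2 at -2.27 ± 0.32 (4.2e-05). Of 6 TGF-beta early targets 3 were lower, among them Tgfbi (-3.35 ± 0.44) and Pmepa1 (-1.57 ± 0.16). Of 14 co-regulators 3 were called, a share near that of all genes, with the zinc finger factor Klf5 higher (1.15 ± 0.14) and Tead2, a partner of YAP (-2.03 ± 0.23), and Hmga2, a chromatin protein that binds Snail and Twist promoters (-1.57 ± 0.38), lower.

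In the other organ contrasts the same lists gave the following counts, to be read beside the shares of all genes given above. Lungs minus pancreas labelled on had 10 of 13 mesenchymal genes lower and 3 of 15 epithelial genes higher, and the same contrast labelled off had 8 lower and 7 higher. The latter counts were 9 and 7 without the paired-end library. Liver minus pancreas labelled off had 3 of 13 lower and 13 of 15 higher, and 8 and 14 without the paired-end library. Liver minus lungs had 12 of 15 epithelial genes higher labelled on and 3 labelled off (7 without the paired-end library), led by Ovol1 (6.02 ± 0.82 labelled on, edgeR adjusted p = 0.000247) and Grhl2 (5.38 ± 0.67, 0.000148), which both sustain epithelial gene expression.

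Over all strata by label, 5 of 13 mesenchymal genes were called lower labelled on (median -1.003 against -0.002 over all genes), among them Itga5 (-1.23 ± 0.18), Fn1 (-1.44 ± 0.28) and Vim (-1.01 ± 0.22). Of 12 other EMT transcription factors tested 3 were lower, Foxc2 at -1.52 ± 0.29 (edgeR adjusted p = 0.00057), Sox11 at -1.47 ± 0.37 (0.00509) and Prrx2 at -1.05 ± 0.26 (0.00443). Hmga2 was lower at -1.33 ± 0.26 (0.000732) as 1 of 14 co-regulators, and Ovol2, an epithelial repressor of Zeb1, was higher at 1.13 ± 0.36 (0.0231) as 1 of 15 epithelial genes. None of the 6 TGF-beta early targets was called (median -0.67). With the paired-end library left out, 3 mesenchymal genes were called (median -0.47), among them Itga5 (-1.16 ± 0.17) and Fn1 (-1.21 ± 0.20), while Vim at -0.94 ± 0.21 was short of 2-fold. Foxc2 (-1.22 ± 0.26), Sox11 (-1.56 ± 0.38) and Hmga2 (-1.30 ± 0.26) were still called, and Prrx2 (-0.93 ± 0.24) and Ovol2 (0.95 ± 0.32) fell short of 2-fold.

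In the interaction of label with stratum, which gives no direction, 1 of 12 other EMT transcription factors, 2 of 14 co-regulators, 3 of 15 epithelial genes, 4 of 13 mesenchymal genes and 0 of 6 TGF-beta early targets passed, beside 2.98% of all genes. The mesenchymal cadherin Cdh2 (edgeR adjusted p = 0.0173) and Tead2 (0.0175) had the lowest values among them. In each of the 5 lists 0 genes passed without the paired-end library, with Cdh2 at 0.126 and Tead2 at 0.0886.

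Within single strata, calls in these lists were made in 2. In the liver at day 7 they were Prrx2 at -2.99 ± 0.30 and Hmga2 at -3.02 ± 0.32 (edgeR adjusted p = 0.0477 each). Without the paired-end library, which leaves 1 library labelled off, they were at -2.53 ± 0.23 and -3.25 ± 0.31. The median log2 fold changes of the lists were then 1.74 for epithelial genes, -0.96 for mesenchymal genes and -0.61 for TGF-beta early targets. They were -0.30 for other EMT transcription factors and -0.20 for co-regulators, against 0.06 over all genes. In the pancreas at day 14 they were Foxc2 lower, the mesenchymal genes Fn1, Tagln and Acta2 lower, and the splicing factors Esrp1 (1.39 ± 0.36) and Esrp2 (1.13 ± 0.18), which set the epithelial pattern of splicing, higher. With all libraries, the share of all genes called was 0.444% in liver day 7 and 4.64% in pancreas day 14.

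Some reads may be shared with genes on the opposite strand. Exons of Gm29100 overlap 1477 bases of Twist2 exons and had 1 to 38 counts a library, a median of 11.7% of the Twist2 count and up to 30.6%. Gm10125 and Zeb2os overlap Zeb1 and Zeb2 with medians of 0.904% and 0.639% of their counts. Gm26735 shares 2616 bases with Sox4 and had 0 counts in every library. The strand setting of the counting is not given in the sources used here, so Twist2 is the member whose level is least certain on this account.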

How the data were processed

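Poly(A)-selected, stranded (TruSeq) RNA-seq libraries of sorted cells were single-end except for 1. Per the labels, the authors used FastQC 0.11.5, Trimmomatic 0.36, STAR 2.5.3a on GRCm38 (mm10) and featureCounts 1.6.3; the strand setting of the counting is not given in the sources used here. The deposited table holds raw read counts per gene for 35 libraries, with totals of 11885461 to 43571007, and 3 counts equal 0.0709 to 0.232 CPM. Groups came from the labels.

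The counts were tested with edgeR 4.0.16 in R 4.3.3 (TMM factors, filterByExpr with a minimum count of 10 and a minimum total of 15, robust quasi-likelihood F-test, Benjamini-Hochberg adjustment over all genes tested). Label was tested within each stratum of organ and day, over all strata with the stratum as covariate, and as an interaction with stratum, where a call needed an adjusted p under 0.05 alone; organs and days were compared within each label. CPM used TMM-scaled totals; levels between genes were divided by the deposited exon length. The scripts were tested on simulated data with known changes. DESeq2 1.42.0 was an alternative, beside no low-count filter, DESeq2 size factors, an mt-Co3 covariate, a replicate block and libraries left out.

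All 7 genes are the named genes of every comparison, by value or by the range and count they fall in; of each gene list at most the 3 called genes with the lowest p are named (1 allele and 1 listed gene are not reported here), and the 2 genes with the highest Spearman correlation to each member. The members and lists were chosen with earlier results of these data known. Same-numbered libraries deviated together by more than 0.1 in every pair only in liver day 14 (correlations 0.14 to 0.56, 3 pairs) and lungs day 14 (0.50 to 0.56, 4 pairs). These pairs also share mt-Co3 status. Differently numbered libraries of equal status did so there too, such as labelled off 2 with labelled on 1 in lungs day 14 (0.58). In liver day 14, labelled off 1 with labelled on 2 stood at 0.39. Whether the numbers pair libraries cannot be told from these values, and the labels give no shared mouse or day.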

Additional observations from a re-analysis of the deposited data

Results flagged for a closer look

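In the lungs at day 7, labelled off, the highest of the 4 libraries stood apart from the others for Snai1 (15.5 CPM against 8.07, 8.83 and 8.69; gap over range 0.864 on the log2 scale) and for Twist2 (12.004 CPM against 8.83, 8.42 and 8.50; 0.867 on that scale). These were different libraries, replicates 1 and 2. In all, 21 sets of 4 libraries were examined, and chance sets apart about 1 in 20. The label difference was unequal over the 6 strata for Zeb1 (edgeR adjusted p = 0.0254) and Zeb2 (0.0254), each with 5 of 6 strata lower in the libraries labelled on, and neither passed without the paired-end library (0.226 and 0.227).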

How the results depend on the processing

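Of the 7 genes in each comparison, the number called by edgeR moved with some choices, and the cause was not tested. With 1 model of all 12 groups it was 6 for the label difference in liver day 7 (17.6% of all genes called) and 4 for liver minus lungs at day 7 (11.6%). With DESeq2 it was 1 in pancreas day 7, 6 in liver day 7, 1 in liver day 14, 5 for liver minus lungs at day 7 and 5 for the interaction with stratum, beside 2.07%, 9.88%, 1.18%, 6.08% and 5.76% of all genes. Without the low-count filter it was 1, 2 and 1 in pancreas day 7, liver day 7 and liver minus lungs at day 7 (2.10%, 3.34% and 1.47% of all genes). With no fold threshold it was 2 in pancreas day 14, 4 over all strata and 2 for liver minus pancreas labelled off (12.9%, 21.5% and 15.1% of all genes). DESeq2 size factors moved no call of a named gene. Smaller moves of the number called are not listed in this section. Gene by gene, 4 calls were gained and 3 lost without the low-count filter. With no fold threshold 10 were gained and 0 lost.

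An mt-Co3 covariate, which could not be fitted in the pancreas strata, gave 1 in liver day 7, 2 for liver minus lungs at day 7, 1 and 5 for liver and for lungs minus pancreas labelled off, and 2 for liver minus lungs labelled on. All genes were then called at 6.38%, 4.73%, 11.1%, 19.7% and 11.2%. Gene by gene, 10 calls were gained and 3 lost with this covariate. The libraries without mt-Co3 reads gave 0 over all strata, 3 and 5 for liver and for lungs minus pancreas labelled off, and 5 and 2 for lungs minus pancreas and liver minus lungs labelled on (5.90%, 16.6%, 20.8%, 15.3% and 7.30% of all genes). Sox4 in lungs minus pancreas then turned to -0.40 (covariate) and -0.44 (libraries without the reads) labelled off and to -0.47 and -0.56 labelled on, and liver minus lungs labelled off turned to -0.25 for Zeb1 and -0.13 for Zeb2 in the libraries without the reads.

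Without the paired-end library the number called was 0 over all strata, 0 for the interaction and 4 for liver minus pancreas labelled off, and liver minus lungs labelled off turned to -0.074 for Snai1, -0.25 for Zeb1, -0.11 for Zeb2 and -0.25 for Twist1. With the replicate block the interaction called 0, beside 0.0214% of all genes. Snai1 stayed the 1 call over all strata (-1.08, edgeR adjusted p = 0.0261), beside 3.62% of all genes. In pancreas day 7 Snai1 then turned to 0.32 and Twist2 to -0.055. The block changed no other call. In liver day 14 and lungs day 14, where same-numbered libraries deviated together, 0 of 7 were called with and without the block. With it 0% and 0.684% of all genes were called.

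Leaving out 1 library at a time, the number called ran from 0 to 6 in liver day 7, 0 to 4 for liver minus lungs at day 7, 0 to 1 over all strata, 0 to 4 for the interaction, 0 to 4 and 0 to 1 for liver minus pancreas and liver minus lungs labelled off, 2 to 3 for lungs minus pancreas labelled off, 5 to 6 for liver minus pancreas labelled on, and 2 to 5 for lungs minus pancreas and for liver minus lungs labelled on. It was 0 throughout in the other comparisons. The share of all genes called moved between these fits as well and is not given for each, so the counts show only how far the calls depend on single libraries. Log2 values whose sign turned ran from -0.35 to 0.33 (Snai1) and -0.32 to 0.39 (Twist2) in pancreas day 7, from -0.63 to 0.15 (Sox4) for liver minus pancreas labelled off, and, for liver minus lungs labelled off, from -0.074 to 1.03 (Snai1), -0.25 to 0.29 (Zeb1), -0.11 to 0.45 (Zeb2) and -0.25 to 0.67 (Twist1).

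Groups of 2 to 4 libraries limit what single strata can show, and leaving out a library from a pair leaves 1 library whose spread is assumed to be that of the others. Snai2 and Twist2 rest on 14 to 415 reads a library. The p-values measure the spread between libraries that the labels do not tie to mice.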
